A study of Mus musculus with 2 samples.

Results

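The genes described here are 37 mouse genes of cholesterol and fatty acid metabolism, measured in sorted regulatory T (Treg) cells. They were chosen by name: every non-control probe whose gene name in the scanner files matched 1 of the 37 symbols was taken, which gave 54 probes on 63 spots out of 55681 non-control probes on the array. All 37 genes were well above background on both arrays, as were all 54 probes, among 23494 gene names measured on both. By role they were 14 enzymes of sterol synthesis, 5 genes of the SREBP control system, 3 genes of lipid uptake and efflux, 4 genes of fatty acid synthesis, 7 elongases and desaturases, and 4 genes of fatty acid activation and oxidation.

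Treg cells restrain immune responses, and the study set Treg cells of Nr4a-TKO mice against Treg cells of wild-type mice. Both came from mice aged 5 weeks and were lysed straight after the sort, and total RNA was hybridised to 1-colour Agilent arrays, with 1 array for each genotype. Which stretch of each Nr4a gene was altered, any promoter or Cre, the number of mice per sample and the gates of the sort are not given in the sources used here. With 1 array per genotype there are no replicates, so every difference is between 2 arrays and carries no p-value.

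Cells make cholesterol from acetyl-CoA through mevalonate and squalene, and fatty acids from acetyl-CoA through malonyl-CoA. The SREBP transcription factors switch on both routes when membrane sterol is low: Scap escorts them out of the endoplasmic reticulum, Insig proteins hold them back there, and their targets carry sterol regulatory elements that work together with NF-Y bound to a CCAAT box. Dividing T cells draw on both routes to build membrane, and in Treg cells the mevalonate pathway is known to serve suppressive function.

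Several facts of the whole series bear on every value below. Nr4a3 had a scaled signal of 52.0 on the Nr4a-TKO array and 366 on the wild-type array, while Nr4a1 had 98444 in Nr4a-TKO and 94475 in wild-type and Nr4a2 had 896 in Nr4a-TKO and 353 in wild-type, so the genotype is given as labelled, and a probe outside an altered stretch checks nothing. Foxp3, which encodes the lineage factor of Treg cells, had 133 on the Nr4a-TKO array and 2295 on the wild-type array, and all 8 Treg and T cell defining markers were lower in Nr4a-TKO, with a median log2 difference of -0.52. Xist, the RNA of the silenced X chromosome, had 2819 on the Nr4a-TKO array and was not well above background on the wild-type array. A second Xist probe, at 1636 on the Nr4a-TKO array, was likewise not well above background on the wild-type array. A difference in the sex of the mice would run together with genotype here, and the 2 cannot be told apart. The scaled signal is the spot intensity divided by its array's 75th percentile and put back on the intensity scale with the mean of both percentiles. A difference is the log2 value of Nr4a-TKO minus wild-type. Spots of the same probe had a median SD that amounts to 0.080 for a difference, over 262 probes. That spread holds no variation between mice.

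The promoters shown first are those of the genes with the largest differences in each direction for which RefSeq promoters (build GRCm38.p6) were given, and of Hmgcs1, the only member whose promoter window held the core letters of a sterol regulatory element. Each window runs from 250 bases before to 50 bases after an annotated start, is written 5′ to 3′ on the gene's strand, and has in capitals the letters CCAAT or their complement ATTGG (NF-Y) and TCACNCCAC (the element's core). Hmgcs1 lies on chromosome 13 (chr13:119690101-119690400, plus strand), Vldlr on chromosome 19 with 2 annotated starts (chr19:27216234-27216533 and chr19:27216770-27217069, plus strand), Fads2 on chromosome 19 (chr19:10101454-10101753, minus strand) and Elovl5 on chromosome 9 (chr9:77917115-77917414, plus strand).
Hmgcs1: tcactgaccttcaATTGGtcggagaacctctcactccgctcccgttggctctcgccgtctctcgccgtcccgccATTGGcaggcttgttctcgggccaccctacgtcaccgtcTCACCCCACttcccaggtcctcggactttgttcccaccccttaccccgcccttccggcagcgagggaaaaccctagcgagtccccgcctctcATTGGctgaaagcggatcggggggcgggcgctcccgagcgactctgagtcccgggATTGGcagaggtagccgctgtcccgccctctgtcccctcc
Vldlr, upstream start: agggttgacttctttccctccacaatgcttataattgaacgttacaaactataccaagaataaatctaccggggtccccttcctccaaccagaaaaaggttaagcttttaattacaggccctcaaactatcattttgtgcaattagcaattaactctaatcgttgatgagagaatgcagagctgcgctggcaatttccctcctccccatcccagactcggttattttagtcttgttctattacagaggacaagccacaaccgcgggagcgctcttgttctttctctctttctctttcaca
Vldlr, downstream start: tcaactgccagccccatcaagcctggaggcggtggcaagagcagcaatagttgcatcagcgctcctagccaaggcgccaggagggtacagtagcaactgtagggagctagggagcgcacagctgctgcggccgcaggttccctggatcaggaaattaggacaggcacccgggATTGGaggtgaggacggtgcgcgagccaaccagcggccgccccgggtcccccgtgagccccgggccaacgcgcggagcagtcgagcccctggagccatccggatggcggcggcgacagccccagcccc
Fads2: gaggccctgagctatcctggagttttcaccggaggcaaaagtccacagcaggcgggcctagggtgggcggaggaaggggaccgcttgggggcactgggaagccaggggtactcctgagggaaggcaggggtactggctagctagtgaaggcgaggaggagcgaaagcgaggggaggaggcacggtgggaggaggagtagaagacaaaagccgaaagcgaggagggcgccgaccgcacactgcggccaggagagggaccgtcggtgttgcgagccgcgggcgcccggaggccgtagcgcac
Elovl5: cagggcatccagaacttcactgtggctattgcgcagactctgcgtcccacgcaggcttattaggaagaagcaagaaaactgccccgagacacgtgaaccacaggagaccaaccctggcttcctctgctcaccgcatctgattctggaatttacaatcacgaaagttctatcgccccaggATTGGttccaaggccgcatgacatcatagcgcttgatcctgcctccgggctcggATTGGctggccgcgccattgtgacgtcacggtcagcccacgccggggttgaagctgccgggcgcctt

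In the Hmgcs1 window the core of the element began at -137 from the annotated start, between CCAAT letters on the opposite strand at -176 and -45. On the opposite strand too, CCAAT stood at -78 in the downstream Vldlr window and at -71 and -17 in the Elovl5 window. The Fads2 and upstream Vldlr windows held neither motif. Over the 40 windows of the 30 members with an entry, CCAAT on either strand was found in 23 windows (57.5%), against 37.4% of 32851 promoter windows in the table. All motifs were searched on both strands. The core TCACNCCAC was found in 1 of the 40 windows and in 1.24% of all windows. The E-box CACGTG was found in 7 of the 40 windows (17.5%), in Abca1, Dhcr7, Elovl5, Insig1, Sc5d and Scap, against 7.15% of all windows. The letters TCACGTGA, which contain that E-box (0.974% of all windows) and AAAGGTCA, the monomer site that Nr4a proteins are known to bind (1.51% of all windows), were in 0 of the 40. So was the pair of AGGTCA letters spaced by 4 bases that LXR receptors bind (0.0152% of all windows). These are matches of letters in short windows and show no binding.

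Across the whole set the differences were small and mostly in 1 direction. Of the 37 genes, 35 (94.6%) were higher on the Nr4a-TKO array, against 59.6% of all gene names, and 2 were lower. Above the median of all genes lay 33 of them. The median difference was 0.33, a factor of 1.26, against 0.08 over all 23494 gene names, and the middle of the set ran from 0.20 to 0.54 (quartiles). At least 2-fold higher were 3 members (8.11%), Vldlr, Fads2 and Scd1, against 3.15% of all gene names, and 0 members were at least 2-fold lower, against 3.06%. At 1.5-fold, 8 members (21.6%) were higher, against 8.36% of all gene names, and 0 were lower, against 7.37%. Seen against the spot error, 30 genes were higher by more than 0.159 on the log2 scale, which is 2 SD between spots. A further 2 were lower by more than that, and 5 lay within it. The quartiles of all gene names were -0.16 and 0.29, so differences past 0.159 were common across the array in both directions. That line holds spot error only, and the spike-in shift of 0.27 was wider.

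The direction of the smaller differences depends on how the arrays are put on 1 scale. Centring on the Agilent spike-in RNAs moved every gene by -0.27 relative to the 75th percentile, which left 21 members higher and 16 lower. The median became 0.069 for the members and -0.19 over all genes. A shift of every gene by the same amount cannot change the gap of 0.25 between these medians, so this centring does not test that gap. Among gene names past 2-fold, that centring put 450 on the higher side and 1228 on the lower. The higher side was then 26.8% of them, against 50.7% with the 75th percentile. Over the 4 other scalings, 14 of the 37 genes turned direction in at least 1 of them. The share of all gene names that turned is not given here.

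**Figure D1:**
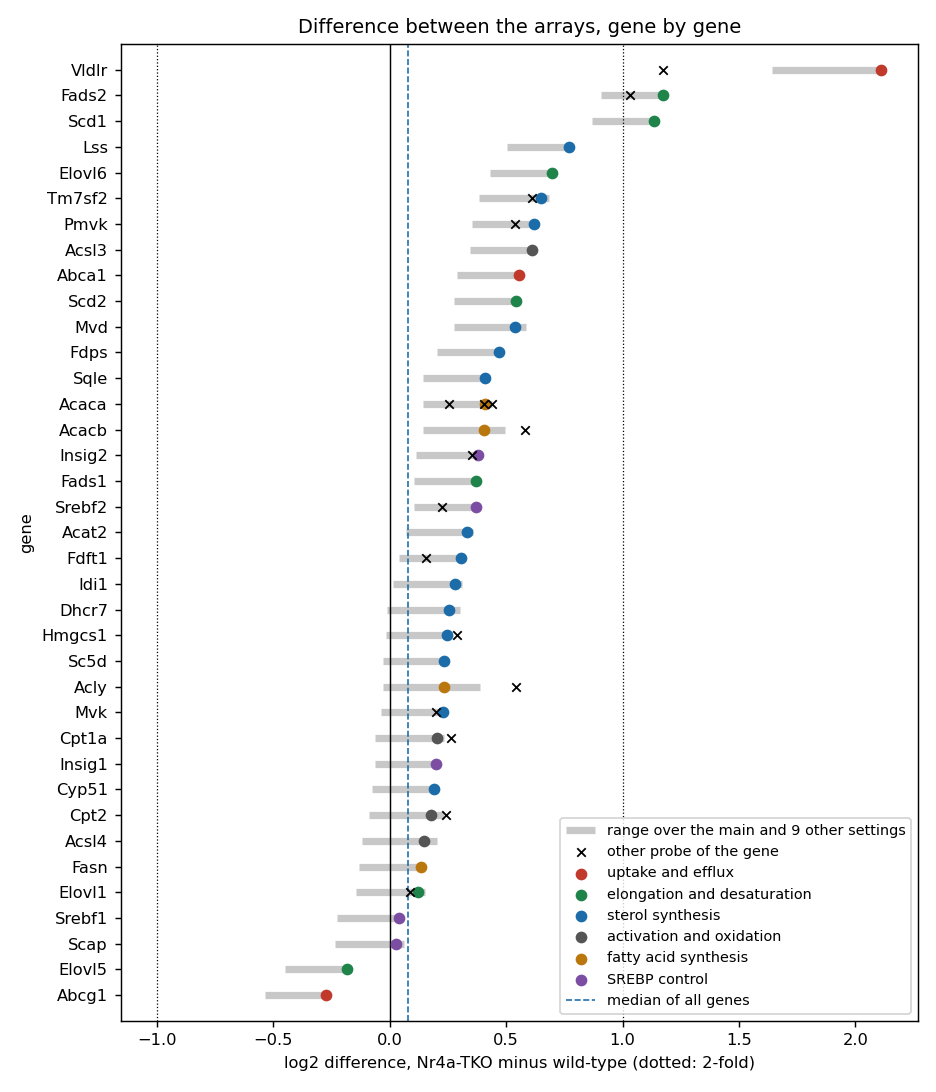
Log2 difference of each gene, Nr4a-TKO minus wild-type, with 1 array per genotype; dots are the brightest probe coloured by role, crosses are other probes of the gene, grey bars span the main and 9 other processing settings, dotted lines mark 2-fold and the dashed line is the median of all genes (0.08). Vldlr (2.11), Fads2 (1.17) and Scd1 (1.14) lie past 2-fold, and Elovl5 (-0.18) and Abcg1 (-0.27) are the only dots below 0.

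The difference varied with signal strength. Of the 37 genes, 20 lay in the brightest quartile of all genes, 12 in the third quartile, 5 in the second and 0 in the dimmest. Genes of the brightest quartile had a median difference of 0.15 and 73.5% of them were above 0, so small positive differences were common among bright genes on these arrays. The members of that quartile had a median of 0.26, those of the third quartile 0.37 against 0.05 for all its genes, and those of the second 0.41 against 0.01. Altogether 32 of the 37 lay above the median of their own quartile. What part of the shift goes with signal strength was not tested.

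**Figure D2:**
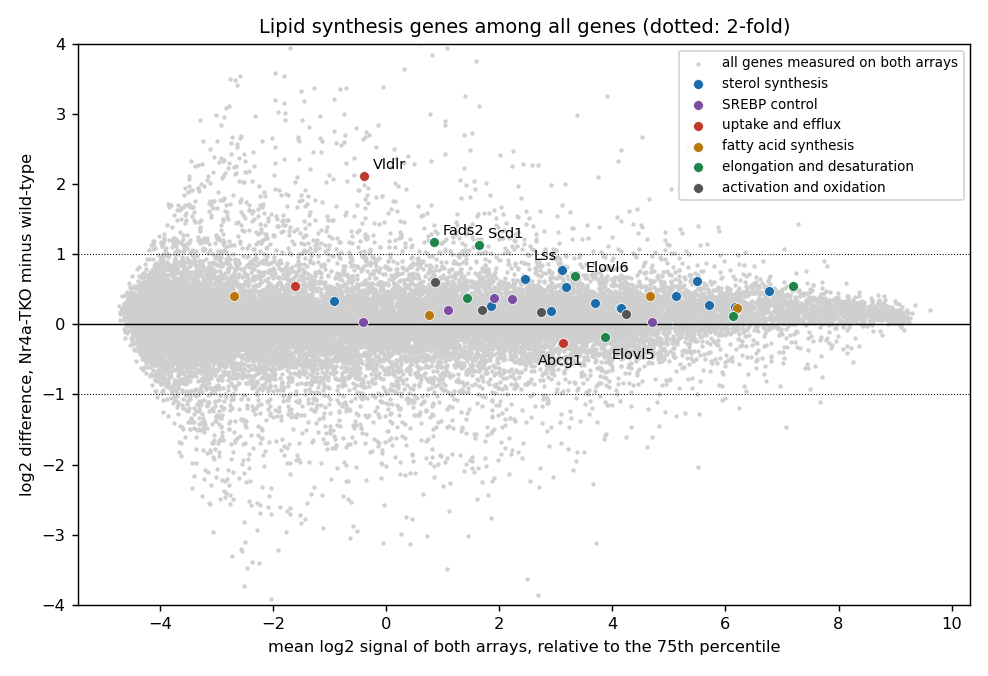
Log2 difference (Nr4a-TKO minus wild-type) against mean log2 signal relative to the 75th percentile, for all 23494 gene names (grey) and the 37 lipid genes (coloured by role); 22 gene names lie beyond the plotted range of 4. The cloud of bright genes sits slightly above 0, and Vldlr, Fads2 and Scd1 stand above the dotted 2-fold line.

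All 14 enzymes of sterol synthesis were higher on the Nr4a-TKO array, against 59.6% of all gene names. All 14 exceeded the median of their signal quartile, with a median difference of 0.32 and a range of 0.19 to 0.77. With spike-in centring 9 of the 14 were higher and 5 lower, with a median of 0.055. Of the 14, 0 reached 2-fold, against 3.15% of all gene names, and 3 (21.4%) reached 1.5-fold, against 8.36%: Lss, Tm7sf2 and Pmvk.

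The early steps, from acetyl-CoA to farnesyl diphosphate, ran as follows. Acat2, a cytosolic thiolase that joins acetyl-CoA units, had a scaled signal of 466 on the Nr4a-TKO array and 369 on the wild-type array (1.26-fold). Hmgcs1, which makes HMG-CoA, had 61745 on the Nr4a-TKO array against 52007 on the wild-type array (1.19-fold), and its second, dim probe gave 1.22-fold; mm9 holds both on an unplaced piece of chromosome 13. The mevalonate kinase gene Mvk stood at 15122 in Nr4a-TKO and 12915 in wild-type (1.17-fold). Its partner Pmvk, phosphomevalonate kinase, differed more, at 44006 in Nr4a-TKO and 28659 in wild-type (1.54-fold), and a second probe gave 1.45-fold. For Mvd, the decarboxylase that forms isopentenyl diphosphate, the signals were 8633 in Nr4a-TKO and 5937 in wild-type (1.45-fold). Idi1, the isomerase of that product, had 45603 in Nr4a-TKO and 37549 in wild-type (1.21-fold). Fdps, which builds farnesyl diphosphate for sterols and for prenylated proteins, had 101737 in Nr4a-TKO and 73441 in wild-type (1.39-fold). Within these steps Pmvk, Mvd and Fdps were therefore set further apart between the arrays than Hmgcs1, Mvk and Idi1, whose gaps were under 1.25-fold.

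The later steps lead from squalene to cholesterol. Fdft1, squalene synthase, had a scaled signal of 11385 in Nr4a-TKO and 9205 in wild-type (1.24-fold). Sqle, squalene epoxidase, had 31865 in Nr4a-TKO and 24015 in wild-type (1.33-fold). Lss, which closes squalene epoxide into lanosterol, showed the widest gap of the sterol enzymes, with 8909.7 in Nr4a-TKO and 5228 in wild-type (1.70-fold). Its probe lies at chr10:76015992-76016051 (mm9, plus strand), and 5.17% of all genes had a larger positive difference. Tm7sf2, a sterol reductase after lanosterol, had 5452 in Nr4a-TKO and 3480.4 in wild-type (1.57-fold), and its second probe gave 1.53-fold. The remaining members among these steps differed little. Cyp51, the lanosterol demethylase, had 6344 in Nr4a-TKO and 5564 in wild-type (1.14-fold), the narrowest gap of the 14. Sc5d, a sterol desaturase, had 15112 in Nr4a-TKO and 12839.6 in wild-type (1.18-fold), and Dhcr7, the reductase that completes cholesterol, had 3129 in Nr4a-TKO and 2621 in wild-type (1.19-fold). Dhcr7, Hmgcs1, Sc5d, Mvk and Cyp51 turned to slightly lower with spike-in centring.

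**Figure D3:**
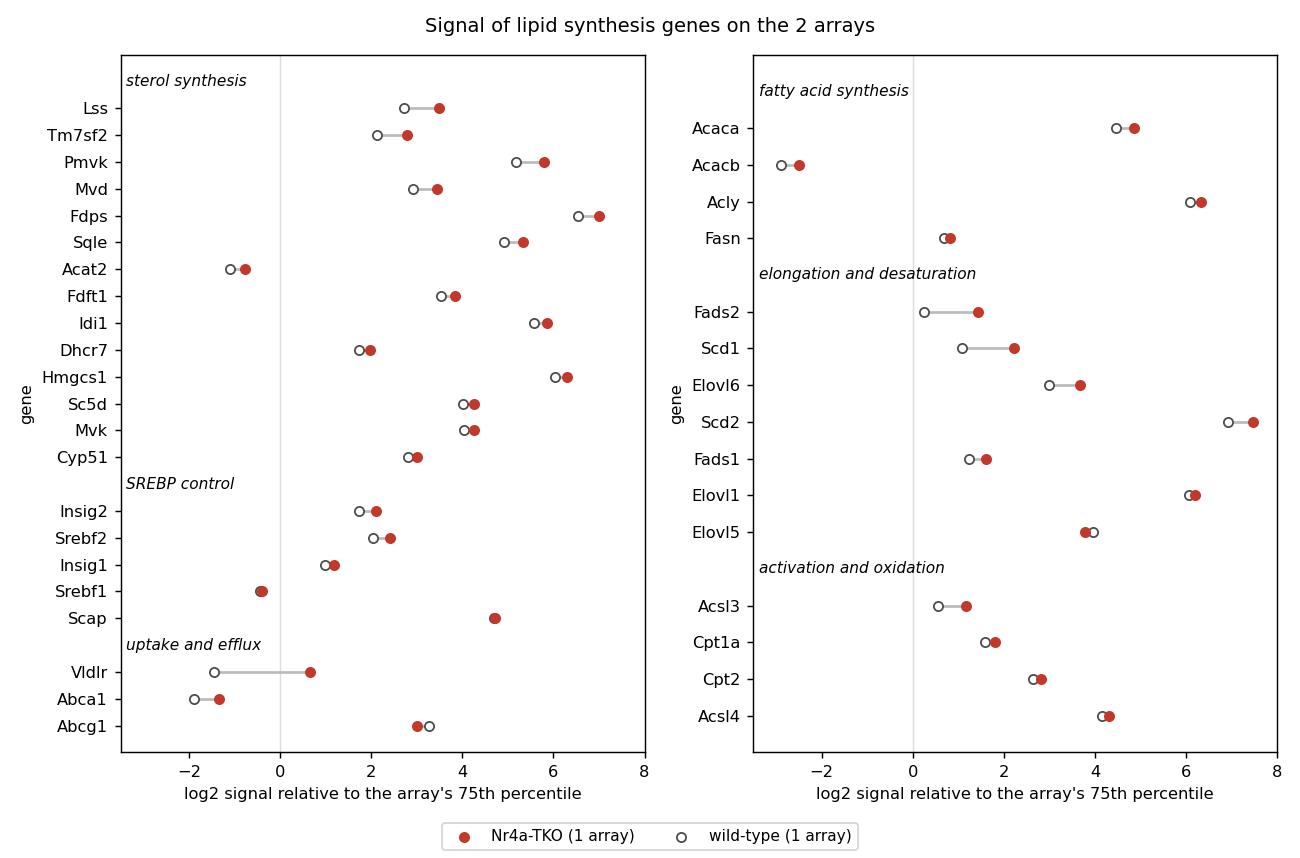
Log2 signal of each gene's brightest probe relative to its array's 75th percentile, by role, on the Nr4a-TKO array (filled) and the wild-type array (open), 1 array each; levels of different probes are not comparable. The filled dot lies right of the open dot for 35 of the 37 genes, with the widest gap at Vldlr.

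The 5 genes that control SREBP had a median difference of 0.20, with 0 past 1.5-fold. With spike-in centring their median was -0.06, with 2 higher and 3 lower. Srebf2, whose protein chiefly drives sterol genes, had a scaled signal of 4191 in Nr4a-TKO and 3245 in wild-type (1.29-fold), and its second probe gave 1.17-fold. Srebf1, whose protein chiefly drives fatty acid genes, had 600.1 in Nr4a-TKO and 584 in wild-type, a difference of 0.04 that is under the spot error. The escort gene Scap had 20845 in Nr4a-TKO and 20433 in wild-type (0.03), and the direction of both Srebf1 and Scap turned under several scalings. Insig1, itself an SREBP target, had 1805 in Nr4a-TKO and 1571 in wild-type (1.15-fold), and turned to lower with spike-in centring. Insig2, the related retention gene, had 3391 in Nr4a-TKO and 2609 in wild-type (1.30-fold), and both of its probes were higher.

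Among the genes of uptake and efflux the 3 members went apart. Vldlr, a receptor for triglyceride-rich lipoproteins that also receives reelin, showed the largest difference of all 37 genes. It had a scaled signal of 1245 on the Nr4a-TKO array against 289 on the wild-type array (4.32-fold), and only 0.604% of all genes had a larger positive difference. Its second probe was dim, with 62.1 in Nr4a-TKO and 27.5 in wild-type, and gave 2.26-fold. With normexp background correction the brighter probe gave 3.70-fold, and with spike-in centring 3.59-fold. Abca1, which exports cholesterol to lipid-poor apolipoprotein, had 312 in Nr4a-TKO and 212 in wild-type (1.47-fold). Abcg1, which exports cholesterol to lipoprotein particles and is, like Abca1, a known LXR target, went the other way, with 6317 in Nr4a-TKO and 7626 in wild-type (-0.27 on the log2 scale). Abcg1 was lower in all 10 settings run, most of which could not turn it. It has 1 probe, so the filters and the mean over probes leave its value unchanged. The settings that shift a whole array by a constant all moved genes down. Quantile normalization gave -0.36 and normexp -0.29.

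The probes behind the 3 genes past 2-fold are named by the array design on mm9. The brighter Vldlr probe lies at chr19:27324050-27324109 and the dimmer at chr19:27321104-27321163, both on the plus strand. The Fads2 probes lie at chr19:10137760-10137819 and chr19:10163229-10163288 and the Scd1 probe at chr19:44469387-44469446, all on the minus strand. Their opening 30 bases of 60 are given 5′ to 3′ so that the measured sites can be told apart, with nothing in capitals.
Vldlr, brighter: ctttttcaatggttgggacaatggcaatag
Vldlr, dimmer: acagtgagacaaaagatatcaacacaacag
Fads2, brighter: tttagctgttgtgttaacatttcctacaga
Fads2, dimmer: agctggatggctgcaacatgactatggcca
Scd1: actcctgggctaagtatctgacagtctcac

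The Vldlr probes share no run of letters longer than 5 bases, and neither do the Fads2 probes, so each pair read separate sites. The Scd1 probe and the Scd2 probe share no run longer than 6 bases.

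The 4 genes of fatty acid synthesis proper were all higher, against 59.6% of all gene names, with a median of 0.32. Past 1.5-fold were 0, against 8.36% of all gene names on the higher side. With spike-in centring the median was 0.055, with 2 higher and 2 lower. Acly, which releases acetyl-CoA from citrate, had a scaled signal of 63481 in Nr4a-TKO and 53966 in wild-type (1.18-fold), while its dimmer probe gave 1.46-fold. Acaca, the carboxylase that makes malonyl-CoA for synthesis, had 22989 in Nr4a-TKO and 17336 in wild-type (1.33-fold). Its 4 probes ranged from 0.25 to 0.44 on the log2 scale; 1 of them is placed on chromosome 12 by the array design but shares a run of 55 of its 60 bases with the brightest probe, on chromosome 11. Acacb, the mitochondrial counterpart whose malonyl-CoA restrains fatty acid import, was dim, with 141 in Nr4a-TKO and 106 in wild-type (1.33-fold). Fasn, fatty acid synthase, had 1400.5 in Nr4a-TKO and 1276 in wild-type, a log2 difference of 0.13 that is within 2 SD of the spot error. Acly and Fasn turned to lower with spike-in centring.

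The enzymes that lengthen and desaturate fatty acids held the widest differences of the lipogenic genes, with a median of 0.54 over 7 members. At least 2-fold higher were 2 (28.6%), against 3.15% of all gene names. By any amount 6 (85.7%) were higher, against 59.6% of all gene names, and 1 was lower. Fads2, the desaturase that opens the polyunsaturated route, had a scaled signal of 2129 on the Nr4a-TKO array against 944 on the wild-type array (2.25-fold), and its second probe, with 591 in Nr4a-TKO and 289 in wild-type, gave 2.04-fold. Fads1, which acts later on that route, had 2416 in Nr4a-TKO and 1867 in wild-type (1.29-fold). Elovl5, the elongase of polyunsaturated chains, went the other way, with 10820.0 in Nr4a-TKO and 12296 in wild-type (-0.18). It was lower in all 10 settings, but it has 1 probe and, as for Abcg1, most of them could not turn it. Quantile normalization gave -0.27 and normexp -0.22. Members of 1 route thus differed in both directions.

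For monounsaturated fats, Scd1, a stearoyl-CoA desaturase, had 3661 in Nr4a-TKO and 1666 in wild-type (2.20-fold). Scd2, its paralogue, had 139471 in Nr4a-TKO and 95786 in wild-type (1.46-fold). With spike-in centring Fads2 and Scd1 came to 1.88-fold and 1.83-fold, under the 2-fold line. Elovl6, which lengthens palmitate to stearate, the substrate of those desaturases, had 10121 in Nr4a-TKO and 6249 in wild-type (1.62-fold). Elovl1, for very long chains, had 57646 in Nr4a-TKO and 52990.2 in wild-type (1.09-fold), a gap within 2 SD of the spot error whose direction turned under 2 scalings.

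Genes that activate fatty acids or carry them into mitochondria differed by a median of 0.19 over 4, which became -0.07 with spike-in centring, with 1 higher and 3 lower. Acsl3, an acyl-CoA synthetase of lipid droplets and the endoplasmic reticulum, had a scaled signal of 1783 in Nr4a-TKO and 1168 in wild-type (1.53-fold). Acsl4, the X-linked synthetase that prefers arachidonic acid, had 15669 in Nr4a-TKO and 14139 in wild-type (1.11-fold), within 2 SD of the spot error. Cpt1a, the gate of mitochondrial import, had 2743 in Nr4a-TKO and 2382 in wild-type (1.15-fold). It was the best measured member, with 9 usable spots in Nr4a-TKO and 8 in wild-type, whose SDs were 0.039 in Nr4a-TKO and 0.055 in wild-type on the log2 scale. Cpt2, which completes the import, had 5573.5 in Nr4a-TKO and 4929 in wild-type (1.13-fold). Cpt1a, Cpt2 and Acsl4 turned to lower with spike-in centring.

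Probes of 1 gene agreed in direction under the 75th percentile scaling. Of the 15 members with several probes, all 15 had every probe on the same side of 0 there. The share over all genes with several probes is not given here. The spike-in shift of 0.27 falls between probes of Hmgcs1 (0.248 and 0.290), Fdft1 (0.31 and 0.16) and Srebf2 (0.37 and 0.23). It also falls between those of Acly (0.23 and 0.54) and Acaca (0.25 to 0.44), so their probes part in direction with that centring. The gap between a gene's highest and lowest probe had a median of 0.083. The widest gap was 0.93, between the Vldlr probes, followed by 0.31 for Acly.

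Further lipid genes outside the 37 differed less uniformly. Of 13 other sterol genes, all measured, 8 (61.5%) were higher and 5 lower, with a median of 0.14. Of all gene names, 59.6% were higher, so that share lies near the background. Soat2, which esterifies cholesterol for storage, was the widest, with a scaled signal of 2364 in Nr4a-TKO and 447 in wild-type (5.29-fold). Mylip, a ligase that sends lipoprotein receptors including Vldlr for degradation, had 1024 in Nr4a-TKO and 2209 in wild-type (2.16-fold lower). Msmo1 (1.57-fold) and Ebp (1.26-fold), both enzymes after lanosterol, were higher, and the LXR receptor genes Nr1h2 and Nr1h3 differed by -0.12 and -0.02. Of 30 other fatty acid genes, 27 were measured on both arrays, 17 (63.0%) higher and 10 lower, with a median of 0.17, again near the 59.6% of all gene names. The elongase gene Elovl7 was 2.42-fold higher, at 454 in Nr4a-TKO and 187 in wild-type. Elovl4, for very long chains, was 2.20-fold lower, at 60.2 in Nr4a-TKO and 133 in wild-type. Mid1ip1, which promotes acetyl-CoA carboxylase assembly, was 1.84-fold higher, and Lpin1 and Dgat2, of triglyceride synthesis, were 1.77-fold and 1.72-fold higher. Mlxipl, a lipogenic transcription factor gene, was lower, at 4593 in Nr4a-TKO and 6894 in wild-type (-0.59 on the log2 scale). These lists had medians nearer to the 0.08 of all genes than that of the 37 did.

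**Figure D4:**
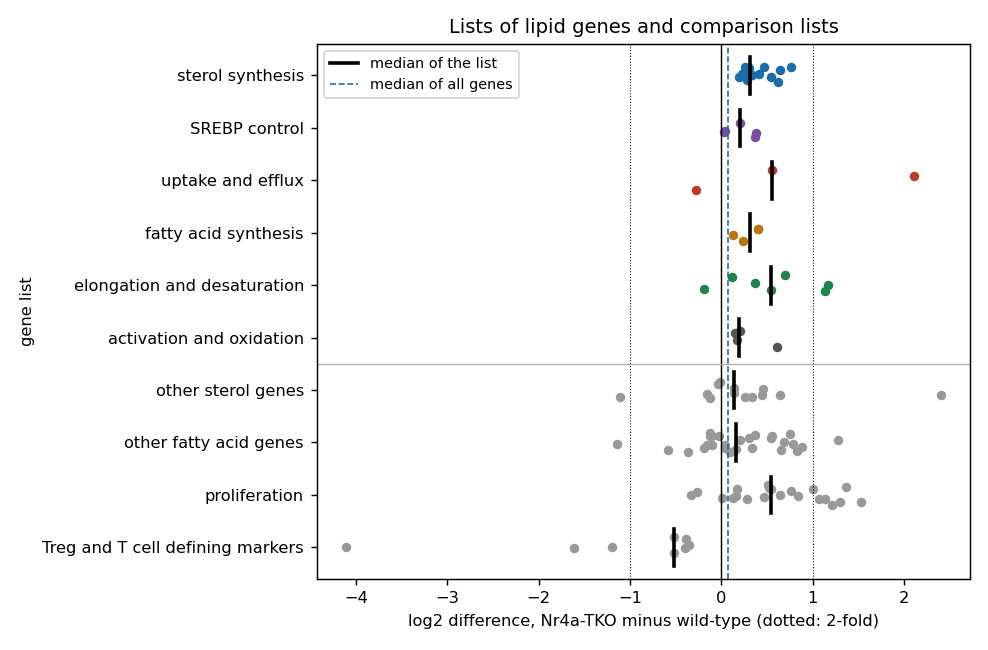
Log2 difference (Nr4a-TKO minus wild-type) of each measured gene in the 6 role groups and in 4 other lists, 1 dot a gene, with the median of each list as a black bar and the median of all genes dashed (0.08). The 14 sterol enzymes lie in a narrow band from 0.19 to 0.77, while the other sterol and fatty acid genes spread on both sides of 0.

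Proliferation genes were mostly higher alongside, but not evenly. Of 21, all measured, 19 (90.5%) were higher on the Nr4a-TKO array, against 59.6% of all gene names, and 7 (33.3%) were at least 2-fold higher, against 3.15%. Their median was 0.54, and their summed scaled signal was 1120330 in Nr4a-TKO and 856995 in wild-type. The 7 past 2-fold were Ccnb1, Ccnb2, Cdc20, Aurka, Plk1, Bub1b and Cenpf, all genes of mitosis. Among genes of DNA replication, Tyms (-0.26) and Mcm3 (-0.33) were lower, Pcna differed by 0.01 and Rrm2 by 0.47. Here, as for the lipid genes outside the 37, a gene whose difference is positive and under 0.27 turns to lower with spike-in centring. The part of proliferation in the lipid gene differences was not tested.

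Markers of other cells that a sort could hold were mostly dim. Of 8 adipocyte and stromal markers, 4 were above background in Nr4a-TKO and 2 in wild-type, with summed signals of 243 in Nr4a-TKO and 197 in wild-type, and Adipoq, Cidec, Lep and Dcn were not above background on either array. Col1a1 and the adipocyte gene Plin1 were above background in Nr4a-TKO only, at least 2.45-fold and 1.48-fold higher. Of the 2 markers measured on both arrays, the adipocyte gene Fabp4 was 1.16-fold higher and Col1a2 was 1.14-fold lower. Of 9 macrophage and dendritic cell markers, 4 were above background in Nr4a-TKO and 5 in wild-type, with Cd14, Itgax, Mrc1 and Clec9a above it on neither. Their summed signals were 109647 in Nr4a-TKO and 111287 in wild-type, nearly all from a Siglech probe at 107621 in Nr4a-TKO and 109699 in wild-type. Of 6 B cell markers, 3 were above background in Nr4a-TKO and 4 in wild-type, with summed signals of 1009 in Nr4a-TKO and 539 in wild-type, and Ms4a1 was above it on neither. Cd79b was 2.51-fold higher, at 813 in Nr4a-TKO and 324 in wild-type. Cd79a and Pax5 differed by 0.11 and 0.30, and Blk was at least 1.45-fold lower. Of 8 granulocyte and mast cell markers, 3 were above background in Nr4a-TKO and 6 in wild-type, with summed signals of 901 in Nr4a-TKO and 1361 in wild-type, and Cpa3 and Ltf were above it on neither. Mpo was 7.76-fold lower, at 33.9 in Nr4a-TKO and 263 in wild-type. S100a8, S100a9 and Mcpt8, above background in wild-type only, were at least 2.61-fold, 3.02-fold and 2.56-fold lower. Elane and Camp differed by -0.07 and 0.13. Of 6 CD8 and NK cell markers, 3 were above background in Nr4a-TKO and 4 in wild-type, with summed signals of 693 in Nr4a-TKO and 1195 in wild-type, and Klrb1c and Klrk1 were above it on neither. Klrd1, above background in wild-type only, was at least 6.25-fold lower, and the 3 measured on both arrays were lower too. Of 6 erythroid and platelet markers, 1 was above background in Nr4a-TKO and 2 in wild-type, with summed signals of 135 in Nr4a-TKO and 181 in wild-type. Hbb-bt, above background in wild-type only, was at least 3.01-fold lower, while Klf1 was 1.49-fold higher. What these cells add to the lipid gene signals was not tested, and in a bulk sample a change in the share of a cell type and a change per cell cannot be told apart.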

How the data were processed

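Treg cells of Nr4a-TKO and wild-type mice were compared with 1 Agilent array each, grouped by the genotype label. The deposited spot intensity is the scanner software's processed signal, made with Agilent Feature Extraction 10.10.1.1 and annotated on mm9, per the file headers. A deposited log2 table equalled log2 of that signal minus an array constant (SD of the residual 0.00029), a rule not given in the sources used here; its column medians were -3.53 for Nr4a-TKO and -3.54 for wild-type.

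Each array had 62976 spots. The 3671 control spots and flagged outlier spots (117 in Nr4a-TKO, 156 in wild-type) were left out; 0 spots were saturated. Each probe took the mean log2 signal of its spots, from which the 75th percentile of its array was subtracted. A probe was well above background where at least 50% of its usable spots carried the scanner's call, which 63.9% of probes met in Nr4a-TKO and 66.0% in wild-type. Transcript accessions named 27509 probes through a RefSeq table of GRCm38.p6; the others kept the file's name. A gene was its probe of highest mean signal. Arrays of 1 per genotype allow no test, and their number limits the precision. Alternatives were normexp (offset 50), 4 other scalings, the deposited table, the mean over probes, 2 filters on dim probes and a 1.5-fold threshold. The members, lists and settings were chosen with earlier results of these data known. All 37 members were named. From other lists, genes past 2-fold could be named, and up to 4 others a list, chosen after their values were seen. More were named among the adipocyte and stromal markers and the macrophage and dendritic cell markers. The remaining list genes are given by counts, medians or sums. Counting was tested on simulated data. Python 3.11.15, numpy 2.4.6, pandas 2.3.3, matplotlib 3.10.9, R 4.3.3 and limma 3.58.1 were used.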

Additional observations from a re-analysis of the deposited data

How the results depend on the processing

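With 1 array per genotype no replicate can be left out and the slide cannot be a block. No paired analysis was possible because each genotype has 1 array. The 3 members at least 2-fold higher became 1 with spike-in centring and 8 at 1.5-fold, and 0 members were at least 2-fold lower in any setting. The members' median of 0.33 became 0.069 with spike-in centring, the sterol median of 0.32 became 0.24 with quantile normalization and 0.055 with spike-in centring, and the fatty acid median of 0.37 became 0.28 with quantile normalization, 0.11 with spike-in centring and 0.28 with normexp. The excess of the members' median over that of all genes ran from 0.18 (stricter filter, 33 members left) to 0.26. Scalings that shift every gene of an array by the same amount, spike-in centring among them, cannot change that excess. Over all genes, the 740 higher and 720 lower became 450 and 1228 with spike-in centring, 478 and 457 with normexp, 1987 and 1834 with dim probes kept, 257 and 280 under the stricter filter, and 1963 and 1731 at 1.5-fold. The filter, threshold and spike-in counts move by construction, and the cause of the normexp change was not tested. Of single member values, 266 stayed within the spot error of 0.080 and 63 moved beyond it. Many were bound to stay: median scaling and the percentile of probes well above background shift every gene by only -0.013 and -0.049. The deposited table is the same signal minus a constant, and the filters leave a member's probe unchanged. The mean over probes changes nothing for genes with 1 probe. Spike-in centring moves every member beyond the spot error, so these counts do not measure stability.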
